A study of Saccharomyces cerevisiae with 20 samples.

Results

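The genes described here are 8 genes of the yeast Saccharomyces cerevisiae for transport of sodium, potassium and protons, with 1 related pump gene, PMR1, among them, taken by name from 7127 gene rows. They are ENA1 (YDR040C), ENA2 (YDR039C), ENA5 (YDR038C), NHA1 (YLR138W), TRK1 (YJL129C), TRK2 (YKR050W), PMR1 (YGL167C) and PMA1 (YGL008C). All 8 were measured. Because the 3 ENA genes are near-identical copies, their counts were added up for testing, which left 6 rows.

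RNA was profiled by Smart-seq2, in which full-length cDNA is amplified before sequencing, in 20 libraries, 4 for each of 5 wild type laboratory strains. BY4741 was MATa with deletions of his3, leu2, met15 and ura3 (his3Delta1, leu2Delta0, met15Delta0, ura3Delta0). CEN.PK2 was MATa and carried ura3-52, trp1-289, his3Delta1 and leu2-3_112 as well as MAL2-8c and SUC2. D273-10B was of the other mating type, MATAlpha, and carried mal. RM11-1a was MATa with HO::kanMX, ura3Delta0 and leu2Delta0. W303 was MATa with can1-100, trp1-1, ura3-1, his3-11,15 and the leu2 allele also listed for CEN.PK2. All 5 strains were grown without treatment in the same medium, synthetic complete with glucose, and were harvested in early exponential phase, so none of the groups was salt-stressed. The strains differ throughout their genomes, and a difference between strains cannot be assigned to a listed allele. The labels do not say that libraries of a strain came from separate cultures, so each p-value measures the spread between these libraries, which may be technical.

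Budding yeast keeps cytosolic sodium low and potassium high while growing in acidic media. The plasma membrane H+-ATPase Pma1 uses ATP to pump protons out, and the resulting membrane potential and proton gradient drive most other transport, including potassium uptake through Trk1 and Trk2. Sodium leaves the cell by the Ena ATPases, which hydrolyse ATP, and by Nha1, which exchanges sodium or potassium for protons. Pmr1 is a related P-type ATPase of the Golgi that transports calcium and manganese. ENA1 is known to be induced by salt and alkaline pH and held low by glucose repression, and the number and sequence of ENA copies are known to differ between yeast strains.

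Total counts ran from 1311322 to 22979469 per library, so 3 counts corresponded to between 0.131 and 2.29 counts per 1000000 counts of the library (CPM). Libraries of a strain differed far beyond sampling noise, with a chi-square per degree of freedom of 13.4 to 870 over their 30 pairs. LEU2 had 0 counts in all BY4741 and RM11-1a libraries, and the alpha-factor gene MF(ALPHA)1 reached 2300 to 7030 CPM in D273-10B against at most 5.09 CPM elsewhere. The library labelled RM11-1a replicate 2 went against its label at HO, the mating-type endonuclease gene that the label gives as HO::kanMX, with 408 counts against 1 to 2 in the other 3 RM11-1a libraries. URA3, given as ura3Delta0, had 102 and 75 counts in RM11-1a replicates 1 and 2 (16.7 and 11.2 CPM) against 11 and 9 in replicates 3 and 4, and at most 3.16 CPM in BY4741, which lists the same deletion. The main results that involve RM11-1a are therefore given with and without replicate 2. In the count table's column names, the RM11-1a libraries form 2 pairs that share a replicate number, and the sample titles were followed.

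The 3 ENA genes form a tandem array on chromosome IV, described here on the RefSeq R64 reference genome. All are on the minus strand. ENA1 lies at positions 535192 to 538467, ENA2 at 531307 to 534582 and ENA5 at 527422 to 530697. Each has a coding sequence of 3276 bases in 1 exon, and neighbouring copies are 609 bases apart. ENA1 and ENA2 differ at 43 bases (98.7% identity) and at 13 of 1091 residues. ENA2 and ENA5 differ at 34 bases (99.0% identity), all from base 2644 on, and ENA1 and ENA5 at 77 (97.6%). The stretch from base 196 to base 270 of the coding sequence separates ENA1 from the other copies. It is shown because it holds 15 of those differences, in capitals, within 1 read length.
ENA1 (chrIV:538198-538272, minus strand): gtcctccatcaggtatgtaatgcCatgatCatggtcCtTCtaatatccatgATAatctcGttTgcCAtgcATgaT
ENA2 (chrIV:534313-534387, minus strand): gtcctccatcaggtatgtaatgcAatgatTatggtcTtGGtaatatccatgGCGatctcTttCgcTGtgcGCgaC
ENA5 (chrIV:530428-530502, minus strand): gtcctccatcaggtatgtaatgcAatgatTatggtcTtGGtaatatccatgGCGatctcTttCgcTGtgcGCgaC
ENA2 and ENA5 were identical over these 75 bases.

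Of the 3202 windows of 75 bases, the read length, in each ENA coding sequence, 86.9% in ENA1, 99.3% in ENA2 and 89.4% in ENA5 also occur elsewhere in the reference. ENA1 has 420 windows of its own, of which 270 begin in the first 270 bases. ENA5 has 339 and ENA2 has 21, all in the last stretch of the gene. No window of NHA1, TRK1, TRK2, PMR1 or PMA1 occurs elsewhere.

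**Figure D1:**
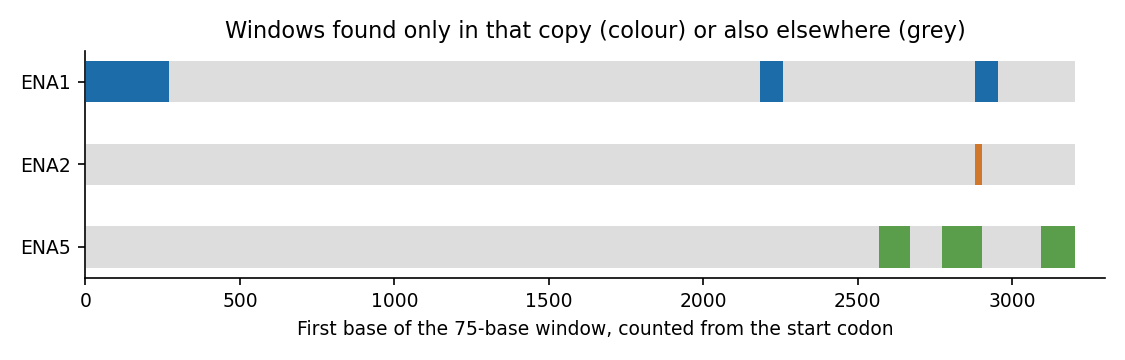
Positions along the coding sequences of ENA1, ENA2 and ENA5 at which a 75-base window of the reference genome occurs only in that copy (coloured) or also elsewhere (grey). The horizontal axis is the first base of the window counted from the start codon. ENA1 has 420 such windows, mainly at its start, ENA5 has 339 near its end and ENA2 has 21.

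The upstream regions of the copies differ in the same way. The 250 bases before the start codon were identical in ENA2 and ENA5, whereas ENA1 matched ENA2 at 62.0% of bases after alignment. The windows below run from 250 bases before to 50 bases after the first base of the start codon, and are shown because each copy is transcribed from its own upstream region. Capitals mark matches to 1 of 8 motifs of known regulators searched on both strands.
ENA1 (chrIV:538418-538717, minus strand): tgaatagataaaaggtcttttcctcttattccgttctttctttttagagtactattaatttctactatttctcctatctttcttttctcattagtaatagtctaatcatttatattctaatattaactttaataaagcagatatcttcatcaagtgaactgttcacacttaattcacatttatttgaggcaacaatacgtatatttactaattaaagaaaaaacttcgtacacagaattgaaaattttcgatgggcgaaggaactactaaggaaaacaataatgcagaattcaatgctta
ENA2 (chrIV:534533-534832, minus strand): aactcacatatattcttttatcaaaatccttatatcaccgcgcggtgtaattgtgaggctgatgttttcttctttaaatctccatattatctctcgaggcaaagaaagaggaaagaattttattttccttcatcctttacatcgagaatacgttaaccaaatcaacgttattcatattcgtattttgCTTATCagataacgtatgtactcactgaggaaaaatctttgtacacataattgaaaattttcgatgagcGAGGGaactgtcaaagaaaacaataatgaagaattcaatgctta
The ENA5 window, at chrIV:530648-530947, has the same bases as that of ENA2. In ENA2 and ENA5 the capitals are a reverse-strand match to GATAAG, the element bound by GATA factors, at position -63 and a reverse-strand match to CCCTC, the Nrg1 core, at position 7. Positions give the first base of the match as printed, with the first base of the start codon as 1. GATAAG occurred in 14.7% and CCCTC in 22.9% of 6001 promoters of the same length. GATAAG also occurred before TRK2 (-24), PMR1 (-12) and PMA1 (-34). The CCCTC core occurred at -79 on the reverse strand of TRK1 and at -116 of TRK2, where it overlapped a match to the Mig1 core CCCCNC (13% of promoters) at -117. None of the 8 motifs was found in the ENA1 window. Neither the Rim101 core GCCAAG (10.3% of promoters), the cyclic AMP response element TGACGTCA (0.133%), the calcineurin-dependent response element GNGGCNCA (3.7%) nor the Rap1 core (1.03%) was found in any of the 8. The eighth motif, the Gcr1 core CTTCC, occurred in 46.4% of promoters and matched once in each of NHA1, TRK1 and PMR1. Sequence more than 250 bases before a start codon was not searched, so motifs there would be missed. ENA1 has 1335 bases between it and the next gene on its upstream side. A match is a description of letters and not of binding.

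Of the members, the ENA genes had the largest differences between strains. In BY4741 the summed ENA counts were 121, 79.8, 49.5 and 60.4 CPM in replicates 1 to 4. In D273-10B they were 84.1, 51.7, 50.9 and 65.8 CPM, and in W303 57.8, 63.8, 64.3 and 108 CPM. CEN.PK2 and RM11-1a were far lower. CEN.PK2 had 9.03, 16.8, 8.90 and 11.2 CPM. RM11-1a had 6.21, 38.1, 16.9 and 15.1 CPM, of which 38.1 CPM came from the library that carried HO reads. All 8 libraries of CEN.PK2 and RM11-1a lay below all 12 of the other strains, whose lowest value was 49.5 CPM.

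Strain means were 77.6 ± 31.4 CPM in BY4741, 73.5 ± 23.3 in W303, 63.1 ± 15.6 in D273-10B, 19.1 ± 13.5 in RM11-1a and 11.5 ± 3.7 in CEN.PK2 (SD, n = 4 each). Without replicate 2, RM11-1a averaged 12.7 ± 5.71 CPM (n = 3). In this order, the libraries of D273-10B and RM11-1a did not overlap, while those of every other pair of neighbouring strains did. The summed row passed the test for any difference among the 5 strains (edgeR quasi-likelihood test, Benjamini-Hochberg adjusted p = 0.000255, or 8.02e-06 without RM11-1a replicate 2). It was the only 1 of 6 member rows to do so, against 28.3% of the 6117 genes tested, or 29.1% without that library. Its largest difference between strain means, 2.50 on the log2 scale, exceeded that of 90.8% of genes, whose median was 1.06.

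Among the 10 pairs of strains, the 6 that set CEN.PK2 or RM11-1a against BY4741, D273-10B or W303 passed for the ENA row, and the other 4 did not. Over the 60 tests of 6 rows and 10 pairs, 7 passed, the remaining call being for PMA1. Of all genes, between 2.11% and 18.4% passed in a pair. ENA was 5.64-fold lower in CEN.PK2 than in BY4741 (log2 difference -2.50, SE 0.429, adjusted p = 0.00154), in a comparison where 6.51% of genes passed. It was 5.46-fold higher in D273-10B than in CEN.PK2 (log2 2.45, SE 0.427, adjusted p = 0.00131; 5.56% of genes) and 5.36-fold higher in W303 than in CEN.PK2 (log2 2.42, SE 0.427, adjusted p = 0.003; 2.6% of genes). RM11-1a stood apart from the same 3 strains by smaller values. ENA was 4.0-fold lower in RM11-1a than in BY4741 (log2 -2.0, SE 0.417, adjusted p = 0.00744; 5.43% of genes) and 3.87-fold lower than in D273-10B (log2 -1.95, SE 0.416, adjusted p = 0.00345; 18.4% of genes). It was 3.81-fold higher in W303 than in RM11-1a (log2 1.93, SE 0.416, adjusted p = 0.00603; 10.8% of genes).

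The library labelled RM11-1a replicate 2 set much of the RM11-1a values. Without it, ENA was 6.12-fold lower in RM11-1a than in BY4741 (log2 -2.61, adjusted p = 9.53e-05, with 10.1% of genes passing) and 5.91-fold lower than in D273-10B (adjusted p = 0.000107, with 17.4% of genes passing). W303 was then 5.82-fold above RM11-1a (adjusted p = 0.000121, with 12.8% of genes passing). Without replicate 1 in its place, the RM11-1a log2 differences were -1.69 from BY4741 (adjusted p = 0.0203) and -1.64 from D273-10B (adjusted p = 0.00991), and W303 was 1.60 above RM11-1a (adjusted p = 0.0149). CEN.PK2 and RM11-1a overlapped and were not separated by the test, with a log2 difference of 0.49 ± 0.411 (SE, adjusted p = 0.549; 6.93% of genes), or -0.11 ± 0.366 without replicate 2 (8.59% of genes). BY4741, D273-10B and W303 differed from each other by at most 0.07 on the log2 scale, with SEs of 0.400 to 0.401. In those 3 comparisons 14.5% (D273-10B against BY4741), 2.11% (W303 against BY4741) and 10.6% (W303 against D273-10B) of genes passed.

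Library numbers fall into series beginning with 66, 69 and 74, and the ENA differences kept their sign within a series in the 5 of the 6 comparisons that could be fitted there. RM11-1a and D273-10B share only series 66, in which D273-10B has 1 library. In series 69, ENA was lower in CEN.PK2 than in BY4741 by a log2 difference of -2.95 (adjusted p = 0.0192), and higher in D273-10B and W303 than in CEN.PK2 by 2.57 (adjusted p = 0.0343) and 2.78 (adjusted p = 0.0863). In series 66, where 1 of the 2 RM11-1a libraries is the one with HO reads, the log2 differences were -1.29 for RM11-1a against BY4741 (adjusted p = 0.688) and 1.35 for W303 against RM11-1a (adjusted p = 0.304). In those fits of 2 libraries a strain, 0 of 5847 and 9 of 5985 genes passed. With the series as a term in the model, the RM11-1a difference from BY4741 was -1.81 and no longer passed (adjusted p = 0.0655), as in a model of these 2 strains alone (-1.98, adjusted p = 0.0573). The difference of RM11-1a from D273-10B also missed the threshold in a model of those 2 strains (-1.96, adjusted p = 0.0569).

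**Figure D2:**
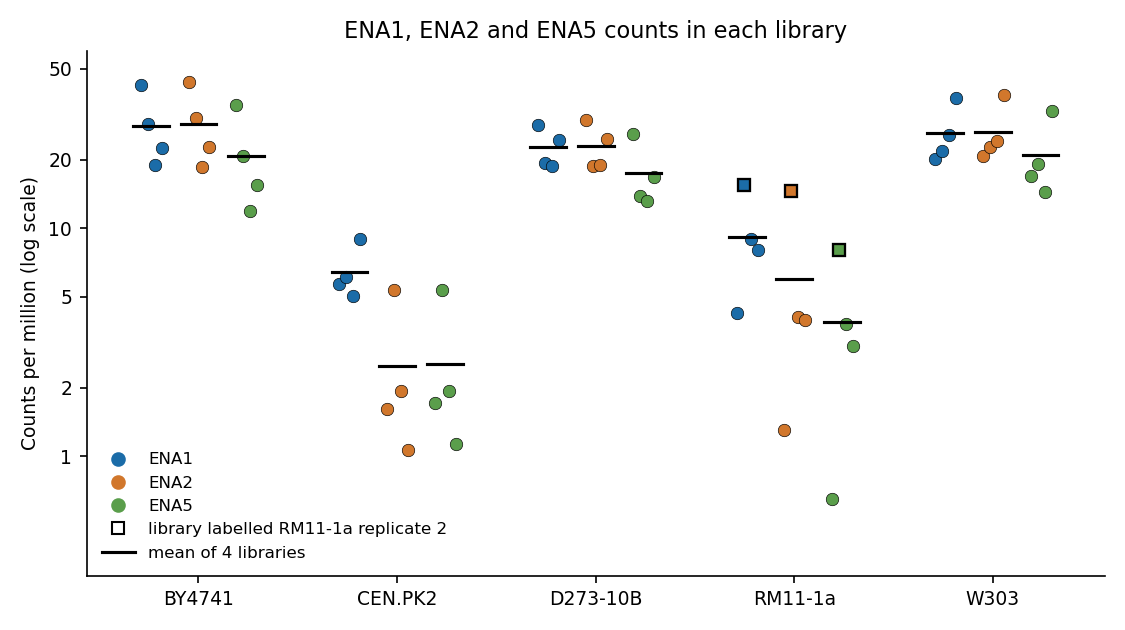
Counts per 1000000 (CPM) of ENA1, ENA2 and ENA5 (log scale) in each of the 20 libraries, by strain; horizontal bars are means of 4 libraries and squares mark the library labelled RM11-1a replicate 2. All 3 rows are lower in CEN.PK2 and RM11-1a, ENA2 and ENA5 by more than ENA1.

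The 3 copies did not differ by the same amount. ENA1 fell from 28.2 ± 10.4 CPM in BY4741 to 6.45 ± 1.74 CPM in CEN.PK2, a log2 difference of -1.72 (SE 0.384, adjusted p = 0.0102). ENA2 fell from 28.7 ± 11.0 to 2.49 ± 1.93 CPM (log2 -3.57, SE 0.548, adjusted p = 0.000699), and ENA5 from 20.7 ± 10.0 to 2.53 ± 1.90 CPM (log2 -3.06, SE 0.523, adjusted p = 0.00146). In RM11-1a the means were 9.17 ± 4.62 CPM for ENA1, 6.0 ± 5.90 for ENA2 and 3.89 ± 3.09 for ENA5. Against BY4741 the log2 differences of RM11-1a were -1.59, -2.23 and -2.37, and all passed (adjusted p = 0.0173, 0.0121 and 0.00686). Without replicate 2 the RM11-1a means were 7.10, 3.12 and 2.50 CPM.

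ENA1 held between 33.7% and 40% of the summed ENA counts in each of the 12 libraries of BY4741, D273-10B and W303. The strain means were 36.7% ± 1.39, 36.2% ± 1.68 and 35.8% ± 2.82 (SD, n = 4 each). In CEN.PK2 the ENA1 share was 62.9%, 36.4%, 56.6% and 80.3% in replicates 1 to 4. The low value came from the shallowest library, with 22 ENA counts and a 95% Wilson interval of 19.7% to 57%. In RM11-1a the share was 68.4%, 40.4%, 53.3% and 53.5%, and the 40.4% belonged to the library with HO reads. The means were 59% ± 18.1 in CEN.PK2 and 53.9% ± 11.4 in RM11-1a, or 58.4% ± 8.66 (n = 3) without replicate 2. The share differed among the strains (permutation test of 100000 permutations on the F statistic, p = 0.0084, adjusted p = 0.017 over 2 ratios tested), with 23.3 percentage points between the highest and the lowest strain mean. Libraries had equal weight in this test, although SDs of the share ran from 1.39 in BY4741 to 18.1 in CEN.PK2. Its p-value may therefore reflect unequal spread as well as the means. Intervals treat each count as a separate read and cover only counting error under that assumption. They would be too narrow if reads were counted in several rows.

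**Figure D3:**
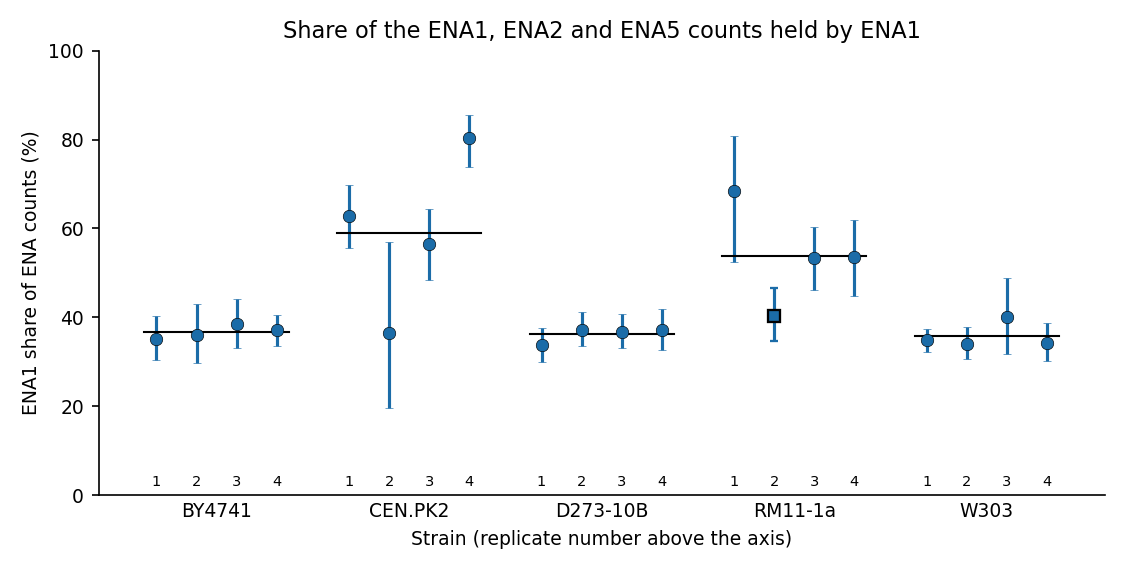
Percentage of the summed ENA1, ENA2 and ENA5 counts that fell on ENA1, for each library. Bars are 95% Wilson intervals that treat each count as a separate read. Horizontal lines are strain means and the square is the library labelled RM11-1a replicate 2. All 12 libraries of BY4741, D273-10B and W303 lie between 33.7% and 40%, and those of CEN.PK2 and RM11-1a reach 80.3%.

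The rows of the copies were not independent. Over the 12 libraries of BY4741, D273-10B and W303, ENA1 had 2266 and ENA2 2306 counts, and the 2 rows agreed more closely than separately drawn reads would (chi-square 1.2 on 12 degrees of freedom). ENA2 and ENA5 were as close in CEN.PK2 (87 and 90 counts, chi-square 0.0892 on 4 degrees of freedom), where ENA1 and ENA2 were not (344 and 87 counts, chi-square 166). How reads that match several copies were counted is not given in the sources used here. If such a read was counted in each row, the sum holds it up to 3 times, and the values per copy are uncertain for that reason. Taking the highest of the 3 rows in each library, an alternative chosen after seeing this, gave an adjusted p of 0.00178 among the 5 strains, and ENA1 alone gave 0.00206. The 6 pair differences still passed but were smaller with the highest row, at -1.76 for CEN.PK2 against BY4741, -1.63 for RM11-1a against BY4741, 1.70 for D273-10B and 1.66 for W303 against CEN.PK2, -1.57 for RM11-1a against D273-10B and 1.53 for W303 against RM11-1a. Fewer copies, a coding sequence that differs from the reference and less RNA per copy cannot be told apart from counts against 1 reference.

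The genes beside the array did not pass the test. RSM10, which encodes a mitochondrial ribosomal protein and lies on the ENA1 side, averaged 97.3 CPM in BY4741, 120 in CEN.PK2, 140 in D273-10B, 179 in RM11-1a and 124 in W303 (adjusted p = 0.0929). KRS1, the cytosolic lysyl-tRNA synthetase gene on the ENA5 side, averaged 371, 150, 340, 196 and 623 CPM in the same order (adjusted p = 0.0521). Its 2 lowest means were those of CEN.PK2 and RM11-1a, whose libraries ran from 30 to 349 and from 75.1 to 271 CPM. Those of D273-10B ran from 92 to 948 CPM and overlapped both, so the order of these means is uncertain.

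NHA1, the sodium and potassium antiporter gene on chromosome XII (418437 to 421394, plus strand, 2958 coding bases), did not pass among the strains. It was measured at 41.1, 23.9, 20.7 and 25.3 CPM in BY4741, 17.7, 23.6, 17.5 and 8.67 in CEN.PK2, and 55.6, 17.0, 17.1 and 15.1 in D273-10B. The values were 22.9, 23.1, 15.6 and 20.9 CPM in RM11-1a and 32.4, 33.2, 26.7 and 30.8 in W303. D273-10B replicate 1 stood far above the other libraries of its strain, and neighbouring strains in the order of means overlapped. Its largest difference was 0.65 on the log2 scale, W303 above CEN.PK2, and the adjusted p among strains was 0.228. W303 libraries did not overlap those of CEN.PK2 or RM11-1a, but neither comparison passed (adjusted p = 0.220 and 0.214, the latter 0.209 without RM11-1a replicate 2). The ENA row and NHA1 thus gave different calls, and the difference between the 2 genes was not tested.

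Neither potassium importer passed the test among strains. TRK1, the high-affinity system (chromosome X, 173599 to 177306, minus strand, 3708 coding bases), ranged from 11.3 to 30.7 CPM over the 20 libraries. Its strain means were 20.6 ± 5.42 CPM in W303, 18.5 ± 8.24 in D273-10B, 16.4 ± 6.20 in BY4741, 13.5 ± 2.7 in CEN.PK2 and 13.3 ± 1.60 in RM11-1a. The 2 libraries above all others in BY4741 and D273-10B were replicate 1 of each, at 25.6 and 30.7 CPM. TRK2 (chromosome XI, 527815 to 530484, plus strand, 2670 coding bases), whose protein is 59.1% identical to Trk1 over 881 aligned residues, ranged from 1.63 to 9.31 CPM. Its strain means ran from 3.58 ± 1.93 CPM in CEN.PK2 to 5.49 ± 1.99 in W303. The adjusted p-values were 0.215 for TRK1 and 0.822 for TRK2 (edgeR quasi-likelihood test), or 0.305 and 0.83 without RM11-1a replicate 2. Libraries of all neighbouring strains overlapped, and the largest log2 differences were 0.65 and 0.45.

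Per length, TRK1 was above TRK2 in every strain. The mean log2 ratio of TRK1 to TRK2 counts per coding base was 1.24 ± 0.33 in BY4741, 1.57 ± 0.57 in CEN.PK2, 1.70 ± 0.49 in D273-10B, 1.05 ± 0.50 in RM11-1a and 1.45 ± 0.36 in W303 (SD, n = 4 each). These correspond to ratios of 2.37, 2.97, 3.25, 2.08 and 2.74. The ratio did not differ among strains beyond the spread between libraries (permutation test, p = 0.33, adjusted p = 0.33), with 0.647 between the highest and lowest strain mean, or 0.616 without RM11-1a replicate 2. TRK2 rested on few reads, with 8 to 110 counts per library.

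PMR1, the Golgi calcium and manganese pump gene (chromosome VII, 187616 to 190468, minus strand, 2853 coding bases), was lowest and most even in RM11-1a. The 4 RM11-1a libraries had 12.7, 11.6, 13.1 and 15.0 CPM. W303 had 29.8, 23.8, 22.1 and 27.5 CPM, all above RM11-1a. The other strains spread across both: BY4741 had 37.9, 29.9, 9.26 and 16.9 CPM, CEN.PK2 13.7, 45.0, 18.4 and 10.3, and D273-10B 44.6, 20.6, 16.0 and 13.5. The adjusted p among strains was 0.171, and the pairs nearest the threshold were RM11-1a against D273-10B (log2 -0.99 ± 0.361, adjusted p = 0.0624) and W303 against RM11-1a (0.96 ± 0.362, adjusted p = 0.0877). Without RM11-1a replicate 2 these adjusted p-values were 0.302 among strains and 0.114 and 0.143 for the pairs. The last 181 bases of PMR1 overlap HUR1 on the opposite strand, which averaged 1.94 to 3.24 CPM per strain. Whether counting used strand is not given in the sources used here.

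PMA1, the essential plasma membrane proton pump gene (chromosome VII, 479910 to 482666, minus strand, 2757 coding bases), was the most highly expressed member. It averaged 102 CPM per kb over the 20 libraries, against 14.9 for the summed ENA genes and 8.27 for NHA1. PMR1 averaged 7.57, TRK1 4.44 and TRK2 1.72. The ENA sum was divided by the length of a single copy and may hold a read more than once. Taken alone, ENA1 averaged 5.66, ENA2 5.29 and ENA5 3.99 CPM per kb. In CPM, PMA1 was at 296, 302.9, 487 and 818 in W303, and at 185, 114, 133 and 195 in RM11-1a. BY4741 had 563, 352, 113 and 215 CPM, CEN.PK2 162, 372, 248 and 125, and D273-10B 448, 198, 140 and 140. W303 lay above RM11-1a in every library, while each of the other 3 strains overlapped both.

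The PMA1 test among the 5 strains missed the threshold (adjusted p = 0.0676, or 0.115 without RM11-1a replicate 2). Of its 10 pairs, only W303 against RM11-1a passed, with PMA1 3.01-fold higher in W303 (log2 1.59, SE 0.437, edgeR quasi-likelihood adjusted p = 0.0235, or 0.0479 without RM11-1a replicate 2). The call was lost without W303 replicate 4 (log2 1.13, adjusted p = 0.114), RM11-1a replicate 3 (1.51, adjusted p = 0.0863) or RM11-1a replicate 4 (1.68, adjusted p = 0.0558). It was also lost within library series 66 (0.88, adjusted p = 0.180) and with the series as a term in the model (1.17, adjusted p = 0.159). LEU1, the leucine biosynthesis gene at the lower-coordinate side of PMA1, was likewise higher in W303 than in RM11-1a (log2 1.58) and D273-10B (2.11), with an adjusted p of 0.00899 among strains. PMA2, a paralogue encoding a protein 90.7% identical to Pma1, averaged 1.58 to 5.33 CPM per strain (adjusted p = 0.0577).

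**Figure D4:**
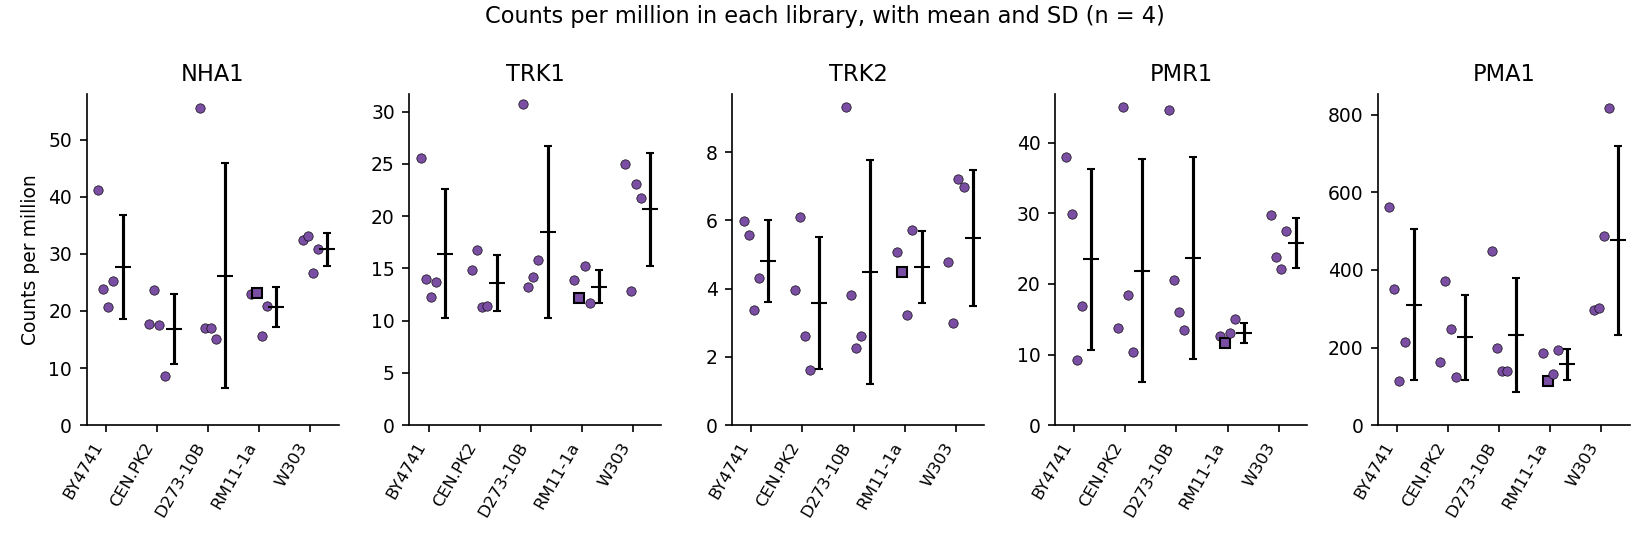
Counts per 1000000 (CPM) of NHA1, TRK1, TRK2, PMR1 and PMA1 in each library by strain, on separate linear scales; dashes with bars are means and SDs of 4 libraries, and squares mark the library labelled RM11-1a replicate 2. D273-10B replicate 1 is the highest library of its strain in all 5 panels, and W303 lies above RM11-1a for PMA1 and PMR1.

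Across libraries, several members moved with the library's slope of counts on gene length. Coding lengths of the 8 run from 2670 to 3708 bases. The slope of a library's deviation from the gene means on log2 coding length ran from -0.34 to 0.44 per doubling, and was highest in D273-10B replicate 1 (0.44) and BY4741 replicate 1 (0.25). Over the 20 libraries, which share depth and preparation, NHA1 correlated with this slope at r = 0.89, PMR1 at 0.72, PMA1 at 0.66, TRK2 at 0.59, ENA at 0.47 and TRK1 at 0.37. With a correction for length, the ENA row still passed among the 5 strains (adjusted p = 0.000384), and its 6 pair differences kept their calls. Those of RM11-1a were smaller, at -1.58 from BY4741 and -1.24 from D273-10B, with W303 1.34 above it. RM11-1a was 1.01 above CEN.PK2 and that difference did not pass (adjusted p = 0.093). The PMA1 difference between W303 and RM11-1a was then 1.03 and did not pass (adjusted p = 0.0565). What sets the slope was not tested, and the members were not compared with other genes of like length.

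By Pearson correlation of log2 CPM over the 20 libraries, the genes most like the ENA row were CBF1 (r = 0.90), HXT1 (0.85) and MTC5 (0.84), of 4644 genes averaging at least 10 CPM. For NHA1 they were WHI2 (0.92), SEC27 (0.91) and SEC63 (0.90), and for PMA1 BAP2 (0.91), SED4 (0.89) and GID7 (0.89). For PMR1 they were APL4 (0.86), ARK1 (0.84) and MKS1 (0.83), for TRK2 GAS1 (0.82), RIM101 (0.82) and KRE6 (0.81), and for TRK1 PFK1 (0.75), ASH1 (0.74) and SSK1 (0.73). Among members, PMR1 and PMA1 were the most alike (r = 0.80). These values describe libraries of 5 strains that share depth, preparation and length slope.

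Other transport and regulator genes were taken from 6 lists of 74 genes, all tested. Of these, 12 (16.2%) passed among the 5 strains, against 28.3% of all genes, and the median of the largest log2 difference was 0.92 against 1.06. Without RM11-1a replicate 2 the count was 16. Without D273-10B replicate 1 it was 31, and 49.9% of all genes then passed.

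Regulators of ENA1 transcription passed in 6 of 13 cases (46.2%, median largest difference 1.25; 5 without RM11-1a replicate 2). NRG1, a repressor of ENA1 acting with Cyc8, averaged 92.0 ± 11.9 CPM in D273-10B against 18.9 ± 13.0 in BY4741, 32.6 ± 10.3 in CEN.PK2, 31.7 ± 14.3 in RM11-1a and 25.7 ± 7.81 in W303. All 4 D273-10B libraries (79.7 to 107 CPM) lay above all others (adjusted p = 0.000549, or 0.00024 without RM11-1a replicate 2). GAT1, a GATA activator of nitrogen-regulated genes, averaged 113 ± 20.9 CPM in W303 and 3.53 ± 2.39 in D273-10B, a log2 difference of 4.85 (adjusted p among strains = 1.5e-06). BY4741, CEN.PK2 and RM11-1a lay between them at 22.3, 23.4 and 30.1 CPM. MIG2, a glucose repressor related to Mig1, was 2.39 lower in CEN.PK2 (35.9 CPM) than in BY4741 (225 CPM) on the log2 scale. D273-10B, at 65.3 CPM, also passed against BY4741 (log2 -1.60). MIG2 averaged 114 CPM in W303 and 85.5 in RM11-1a, or 39.1 without replicate 2. Without that library, RM11-1a passed against BY4741 (log2 -2.54) and D273-10B (-0.93), and W303 was 1.52 above it and passed. RM11-1a against CEN.PK2 did not pass (-0.14). GLN3, a second GATA activator, was 1.95 higher in W303 than in CEN.PK2 on the log2 scale. CYC8 was 1.20 higher in D273-10B than in BY4741, but their libraries overlapped (10.6 to 36.7 against 6.78 to 16.2 CPM). SNF1, the kinase that relieves glucose repression, passed at an adjusted p of 0.0475 but not without RM11-1a replicate 2 (0.0696).

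Among other P-type ATPases 2 of 11 passed (18.2%, median largest difference 0.97; 4 without RM11-1a replicate 2). PMC1, the vacuolar calcium pump, averaged 33.7 CPM in D273-10B against 10.1 in BY4741 (log2 2.06), and NEO1, a phospholipid flippase, 28.3 against 9.63 (log2 1.88). Within D273-10B the libraries spread from 10.9 to 82.3 CPM for PMC1 and from 10.1 to 75.5 for NEO1. Of 9 calcineurin pathway genes 1 passed (11.1%, median 1.05; 2 without RM11-1a replicate 2). It was FKS2, a glucan synthase gene induced by calcineurin, at a mean of 98.0 CPM in D273-10B, where libraries ranged from 13.8 to 252 CPM, against means of 18.7 to 28.1 elsewhere. CNA1, a calcineurin catalytic subunit gene, had an adjusted p of 0.058, or 0.0289 without RM11-1a replicate 2. Of the other cation transporters 2 of 11 passed (18.2%, median 1.07; 2 without RM11-1a replicate 2). QDR2, a plasma membrane transporter of drugs and monovalent cations, averaged 137 ± 52.6 CPM in BY4741 and 133 ± 121 in D273-10B (36.1 to 309) against 16.3 in W303, 22.4 in CEN.PK2 and 21.7 in RM11-1a, or 3.13 without replicate 2. Its only pairs to pass with all libraries were RM11-1a (log2 -2.65) and W303 (-3.13) against D273-10B. Without RM11-1a replicate 2, RM11-1a passed against BY4741 (log2 -5.44), CEN.PK2 (-2.94) and D273-10B (-5.48). W303 was then 2.35 above RM11-1a, which also passed. PHO89, a sodium-coupled phosphate transporter, averaged 5.65 CPM in BY4741 and 0.932 in RM11-1a (log2 -2.48), or 0.497 without replicate 2 (log2 -3.30). D273-10B, at 1.08 CPM, also passed against BY4741 (log2 -2.09). PHO89 rested on few counts, with 0 to 2.24 CPM in RM11-1a libraries and 2.02 to 10.5 in those of BY4741.

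The vacuolar H+-ATPase, which acidifies the vacuole, had 0 of 15 subunit genes past the threshold (1 without RM11-1a replicate 2), and its median largest difference was 0.72. VMA1, a catalytic subunit gene, came nearest (adjusted p = 0.0501, but 0.0236 without RM11-1a replicate 2), at 126 CPM in RM11-1a and 38.4 in CEN.PK2, followed by VMA4 (0.0747). Of 15 regulators of TRK1 and PMA1, 1 passed (6.67%, median 0.87; 2 without RM11-1a replicate 2). It was HSP30, a membrane protein that restrains Pma1 activity, which averaged 15.3 CPM in D273-10B, 25.4 in BY4741, 75.5 in CEN.PK2, 98.0 in W303 and 111 in RM11-1a, or 140 without replicate 2. PPZ1, a phosphatase that acts on Trk transport, had an adjusted p of 0.0819, or 0.044 without RM11-1a replicate 2.

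**Figure D5:**
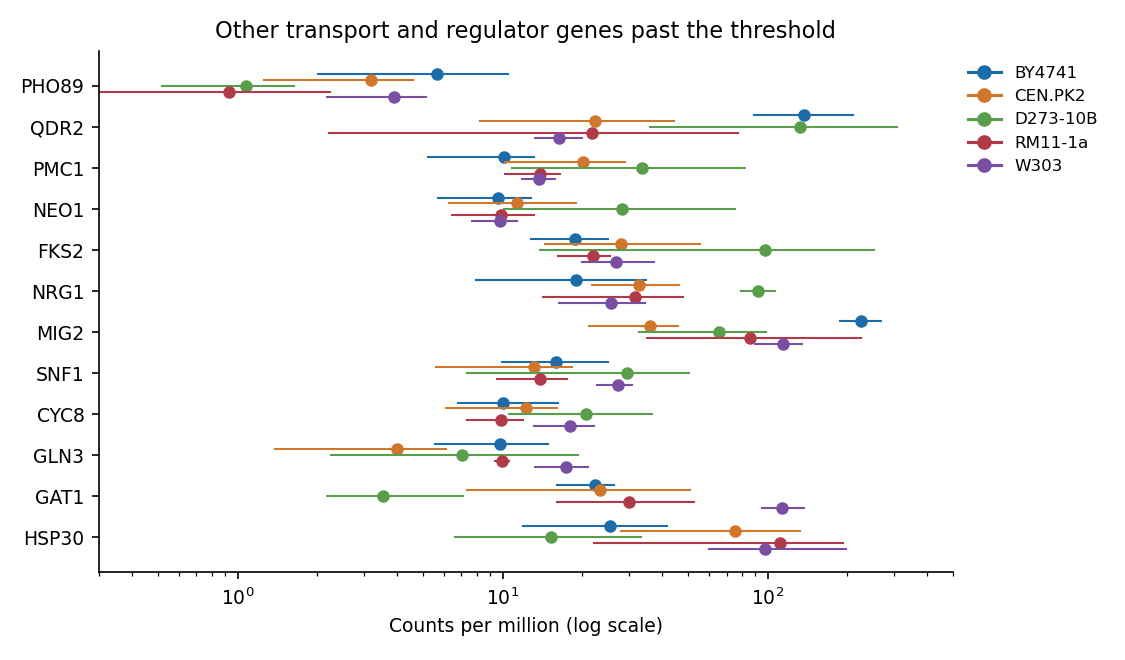
Counts per 1000000 (CPM) (log scale) of the 12 listed transport and regulator genes past the threshold among the 5 strains; points are strain means, and lines run from the lowest to the highest of 4 libraries. NRG1 in D273-10B and GAT1 in W303 lie above all other strains, and the line of PHO89 in RM11-1a starts at 0 CPM, off the log axis.

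The remaining neighbours of the members were read in the same fit. Beside NHA1, RKM5, which encodes a lysine methyltransferase of a ribosomal protein, passed (adjusted p = 0.0192) and was lower in D273-10B than in BY4741 by a log2 difference of -1.23, while SLS1 did not (0.355). Beside TRK1, URA2, the first enzyme of pyrimidine synthesis, passed (adjusted p = 0.0394) and PBS2, the kinase of the osmotic stress pathway, did not (0.168). FMP46 and HFL1 beside TRK2, SUA5 and CUP2 beside PMR1, and YGL007C-A beside PMA1 did not pass.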

How the data were processed

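Per the file header, the authors deposited a table of raw read counts per gene, without normalization, under gene identifiers of Ensembl release 109. STAR and Salmon are named in the submitters' processing notes. Their roles and versions, the genome build, the use of strand and the treatment of reads that match several genes are not given in the sources used here. Per the labels' protocols, libraries followed Smart-seq2 and were read as 75-base single-end reads. The labels name no molecular identifiers, so PCR copies count separately. All 20 count columns were used, 0 were left out, and each was matched to its sample by library number. Total counts were 1311322 to 22979469 per library.

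The ENA1, ENA2 and ENA5 counts were summed before fitting, and each copy was fitted without summing for its own values. Genes were kept by filterByExpr (6117) and scaled by TMM. They were fitted with edgeR 4.0.16 in R 4.3.3, in 1 quasi-likelihood model of 5 strains and 20 libraries. P-values were adjusted by Benjamini-Hochberg over all genes kept, with a threshold of 0.05. SEs came from the F statistic. Log2 values per library use a prior count of 0.5. The script was tested on simulated data.

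The named genes are all 8 members, in each other list those past the threshold (up to 6) or the 2 of smallest p, the genes on both sides of each member, and the 3 genes most like each. The members and lists were chosen with earlier results of these data known. Alternatives were DESeq2 1.42.0 as the test and its size factors, other filters, ENA1 alone, models of 2 strains, blocks for replicate number and library series, a length correction, and leaving out each library. Sequences and positions are from RefSeq R64, and 6047 gene rows matched it.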

Additional observations from a re-analysis of the deposited data

Results flagged for a closer look

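In each strain the lowest and the highest library were compared with the other 3 for every member, for the ENA sum and for the 2 ratios. Of 55 groups of 4 libraries, 6 had a library that stood apart, its gap to the nearest library exceeding Dixon's 95% critical share of the group's range. Chance flags about 1 in 20 groups. W303 replicate 4 had 108 CPM for the summed ENA genes, against 57.8 to 64.3 in the other 3 libraries. D273-10B replicate 1 had 55.6 CPM for NHA1, against 15.1 to 17.1, and 30.7 CPM for TRK1, against 13.2 to 15.8. BY4741 replicate 1 had 25.6 CPM for TRK1, against 12.3 to 14.0. The ENA1 share was 33.7% in D273-10B replicate 1, against 36.8% to 37.2%, and 40% in W303 replicate 3, against 34.1% to 34.8%. D273-10B replicate 1 and BY4741 replicate 1 were also the libraries with the highest slopes on coding length, 0.44 and 0.25 per doubling, and the part of that slope in these values was not tested.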

How the results depend on the processing

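The 7 pair differences that passed were recomputed under each alternative, which gave 223 values in all. Of these, 210 gave the same direction and call, 13 gave the same direction without passing, and 0 reversed. Many of the 210 left out a library of a strain outside the pair, which could hardly move the difference. For ENA in CEN.PK2 against BY4741 such values were -2.50 to -2.52. The count of 210 therefore overstates how far the calls were tried. For ENA, RM11-1a against BY4741 missed the threshold in a model of 2 strains (-1.98), with a library series block (-1.81) and in series 66 alone (-1.29). RM11-1a against D273-10B missed it in a model of 2 strains (-1.96), W303 against CEN.PK2 in series 69 alone (2.78) and W303 against RM11-1a in series 66 alone (1.35). The other 7, library series block and length correction among them, were for PMA1 in W303 against RM11-1a, at 0.88 to 1.68. The count of members passing among the 5 strains was 1, or 2 with DESeq2 as the test, where PMA1 also passed (adjusted p = 0.0252). It ran from 1 to 2 when 1 library was left out, and was 2 without BY4741 replicate 3 or D273-10B replicate 1, again with PMA1. Calls over the pairs numbered 7 of 60, where 2.11% to 18.4% of all genes passed in a pair. They numbered 6 to 8 with 1 library left out. Of the other transport and regulator genes 12 passed, against 25 with DESeq2 (41.2% of all genes), 7 with the series block (19.3%), 21 with the length correction (36.1%) and 8 to 31 with 1 library left out. The value of 31 was without D273-10B replicate 1. The range of ENA1 shares ran from 18.1 to 30.8 percentage points, and that of the TRK1 to TRK2 ratio from 0.478 to 0.875. Deviations from the strain mean correlated at -0.44 to 0.41 between same-numbered libraries of different strains (14 of 40 above 0.1). Libraries with different numbers were not compared, so whether the numbers pair libraries was not tested. With a replicate block, 1 member, 7 pair calls and 11 other genes passed, and 25.4% of all genes passed among the 5 strains. ENA2 rested on as few as 7 counts in a library and ENA5 on 4. The causes were not tested.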
